A study of Mus musculus with 6 samples.

Results

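The genes examined here encode 10 enzymes of mitochondrial fatty acid β-oxidation: Cpt1a, Cpt2, Acadvl, Acadl, Acadm, Acads, Hadha, Hadhb, Acaa2 and Decr1. They were picked by symbol, and all 10 were found among the 19764 genes of the deposited table. Each passed the filter on low values that left 12276 genes for testing. The cells were primary hepatocytes of Bl6/N mice. All of them spent 16 h in starvation medium with 5 mM glucose and then received corticosterone at 1 µM and WY-14643 at 10 µM for 8 h; the first activates the glucocorticoid receptor and the second activates PPARα, a lipid-sensing nuclear receptor. The 3 Control libraries had vehicle added and the 3 TNF libraries had 1 ng/ml TNF, an inflammatory cytokine. No group lacked both ligands, so every level below is a level under corticosterone and WY-14643. The labels give neither the age and sex of the mice nor whether replicates came from separate animals or wells; p-values then measure the spread between these libraries, which may be technical.

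Long-chain fatty acids cannot cross the inner mitochondrial membrane as CoA esters. CPT1A on the outer membrane moves the acyl group to carnitine, and CPT2 on the inner membrane moves it back to CoA in the matrix. There each turn of β-oxidation has 4 steps: an acyl-CoA dehydrogenase, a hydratase, a hydroxyacyl-CoA dehydrogenase and a thiolase. The dehydrogenases VLCAD (Acadvl), LCAD (Acadl), MCAD (Acadm) and SCAD (Acads) take chains of decreasing length and pass electrons to the electron transfer flavoprotein. The trifunctional protein, made of α subunits (Hadha) and β subunits (Hadhb), carries out the later steps for long chains, Acaa2 encodes a thiolase, and DECR1 reduces double bonds of unsaturated chains. In fasted liver the pathway supplies energy and acetyl-CoA for ketone bodies, and many of its genes are targets of PPARα.

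Whole reads could be recovered from the table. The libraries held 17612060 to 25114289 reads over genes, and each member had at least 1248 reads in every library (range 1248 to 9890). Counting error was thus small beside the spread between libraries of the same group. Changes between same-numbered Control and TNF libraries had SDs from 0.01 (Acadl) to 0.10 (Acaa2) in log2. Counting error was not compared with these SDs, so it is not shown to be small beside the spread that the blocked fit uses. Levels are CPM, read counts on the authors' per-library scaling, as mean ± SD over 3 libraries. Changes are TNF minus Control on the log2(CPM + 1) scale. Libraries with the same replicate number in Control and TNF deviated together (correlation across genes 0.78, 0.79 and 0.79), so the members' changes are given both without a block (unpaired) and with the replicate number as a block (blocked). For the other metabolic and regulator lists and the cell type markers the changes named are blocked calls, and the unpaired fit called none of those genes. "Rose" and "fell" are used of genes with an adjusted p under 0.05 in the blocked limma fit. The hepatocyte label was checked against 7 markers, whose summed level was 29247 to 48357 CPM in Control and 27846 to 43348 CPM in TNF. Most of that sum was Alb, which did not pass (limma blocked adjusted p 0.679). Of the 7 markers, 4 (Apoa1, Ttr, Hnf4a and Cps1) fell (Cps1 log2 -1.43). The blocked fit called 11.2% of all tested genes lower, and 17.6% of those with a mean level at or above that of Hadhb. The Ttr call was close to the threshold (limma blocked adjusted p 0.0464). The lower count was 3 without the libraries numbered 2, under median-of-ratios scaling and without a filter on low genes, and 5 without the libraries numbered 1. Macrophage markers summed to 143.6 to 231 CPM in Control and 146 to 233 CPM in TNF, nearly all of it Cd68, with 1 of 6 tested and Clec4f and Timd4 at 1 read each over the 6 libraries. Of 5 endothelial, 4 stellate and 4 cholangiocyte markers in the table, Stab2 and Reln fell and Sox9 rose; the Stab2 call was lost without any 1 replicate number and the Reln call without number 2 or number 3, and both were lost without a filter on low genes. The 4 lymphocyte and neutrophil markers reached at most 0.387 CPM in sum. The part of these markers in the results below was not tested. Fewer cells expressing a gene and less RNA per cell cannot be told apart in such bulk libraries. As a check of the treatment, Icam1, a TNF-induced adhesion molecule, rose from 44.7 ± 7.81 to 173 ± 24.2 CPM (n = 3 each).

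In the presence of TNF 5 of the 10 genes fell (Cpt1a, Acadm, Hadha, Hadhb and Acaa2), 1 rose (Acadl), and Cpt2, Acadvl, Acads and Decr1 did not pass the test. The changes were small. The 2 largest were falls of 16.7% for Cpt1a and 16.0% for Acadm, and the rise of Acadl was 8.28%. Over all tested genes the blocked limma fit called 20.6%, 11.2% lower and 9.39% higher; among the 3143 genes with a mean level at or above that of Hadhb, the lowest member, it called 17.6% lower and 16.0% higher. In all 3 pairs of same-numbered libraries 7 members were lower and 1 was higher with TNF; of all tested genes 27.7% were lower in all 3 pairs and 23.4% higher, 51.2% together. The median change of the 10 members was -0.12, against -0.01 over all tested genes. Leaving out 1 library moved the members' median to between -0.19 (without Control 1) and -0.03 (without Control 2), with -0.07 without TNF 1, and leaving out both libraries numbered 2 gave -0.08. In the unpaired limma fit, which called 0.432% of genes (0.358% higher and 0.0733% lower), none of the 10 passed; 1 of them, Acadm, had an unadjusted p under 0.05, as did 8.77% of all genes, and limma-voom on the recovered reads also called none. For each member the range among the 3 Control libraries was wider than its change with TNF. In the blocked fit without the libraries numbered 2, where 7.26% of genes were called lower and 6.68% higher, 3 members were lower (Cpt1a, Acadm and Hadhb) and none was higher, 1 being higher at an unadjusted p under 0.05.

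**Figure D1:**
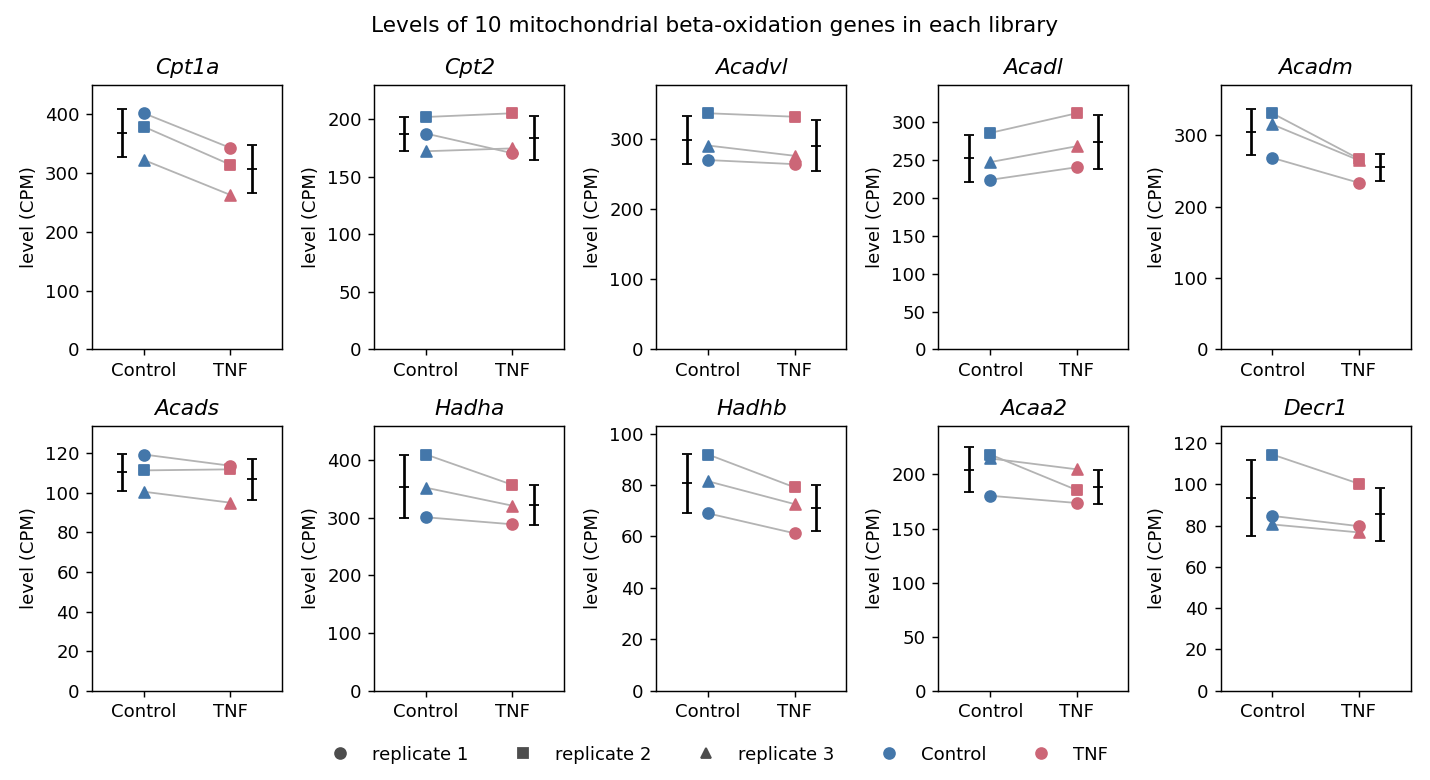
Level of each gene (CPM, linear axis from 0) in the 3 Control (blue) and 3 TNF (red) libraries, with grey lines joining libraries of the same replicate number and black bars giving mean ± SD. Lines fall in parallel for Cpt1a and Hadhb and climb in parallel for Acadl, and the groups are separate for Acadm only.

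Promoter sequence is shown for the genes that changed most and for the one that rose. It is taken from RefSeq promoters on GRCm38.p6 (the mm10 build), which gave a window for 8 of the 10 genes, each ending at the gene start used in the deposited table. Only the stretch outside annotated exons of GENCODE mouse release M21 is printed, 5′ to 3′ on the strand of the named gene. Capitals mark matches, on either strand, to 6 motifs: the PPAR-RXR element (AGGNCA, any 1 base, AGGNCA again; N is any base), the nuclear receptor half-site (AGGTCA), the glucocorticoid response element (GNACA, any 3 bases, TGTNC), an NF-κB site (GGGA, any 1 base, TTTCC), the CCAAT box (CCAAT) and the GC box (GGGCGG). The half-site is also contained in some PPAR-RXR elements.
Cpt1a, chr19:3323051-3323284, plus strand: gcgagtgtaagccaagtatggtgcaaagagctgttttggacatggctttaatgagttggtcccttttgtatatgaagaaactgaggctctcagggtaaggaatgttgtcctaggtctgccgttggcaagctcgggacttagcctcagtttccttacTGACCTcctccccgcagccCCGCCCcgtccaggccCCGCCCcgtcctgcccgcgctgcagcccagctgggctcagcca
Acadm, chr3:153944644-153944893, minus strand: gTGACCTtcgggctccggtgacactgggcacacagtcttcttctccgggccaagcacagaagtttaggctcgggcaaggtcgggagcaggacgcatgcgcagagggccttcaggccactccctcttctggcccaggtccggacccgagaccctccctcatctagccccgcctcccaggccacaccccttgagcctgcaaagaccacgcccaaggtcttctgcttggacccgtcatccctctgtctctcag
Acadl, chr1:66863310-66863559, minus strand: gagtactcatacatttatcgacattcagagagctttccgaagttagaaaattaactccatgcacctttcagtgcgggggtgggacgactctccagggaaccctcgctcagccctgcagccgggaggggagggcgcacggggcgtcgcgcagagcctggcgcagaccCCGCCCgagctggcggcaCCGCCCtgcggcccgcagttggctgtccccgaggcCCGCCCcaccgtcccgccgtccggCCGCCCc
Hadha and Hadhb, chr5:30155163-30155247, on the strand of Hadhb: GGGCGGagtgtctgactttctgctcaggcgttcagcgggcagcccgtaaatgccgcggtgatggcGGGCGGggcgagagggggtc

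In the 250 bases before the start, the half-site was found in 3 of the 8 windows (Cpt1a, Acadvl and Acadm), against 14.0% of 32851 RefSeq promoter windows of the same length. The GC box was found in 6 of 8 (Cpt1a, Cpt2, Acadl, Acads, Hadha and Hadhb), against 32.7%. Cpt1a alone of the 8 held a CCAAT box, found in 33.8% of all windows; it lies 19 to 15 bases before the start, so the printed stretch ends within it. No full PPAR-RXR element, glucocorticoid response element or NF-κB site was among these letters, and such matches were present in 0.338%, 0.387% and 0.356% of all windows. The Acadl stretch holds 4 GC boxes and no half-site, and the Acadm stretch holds 1 half-site and no GC box. Hadha and Hadhb start head to head 272 bases apart on opposite strands, and their windows share 228 bases.

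Entry into mitochondria was described by the carnitine palmitoyltransferases. Cpt1a, the step inhibited by malonyl-CoA, lies on the plus strand of chromosome 19 (mm10, 3323301 to 3385733). It was at 402, 379 and 322 CPM in Control 1, 2 and 3 and at 343, 314 and 263 CPM in TNF 1, 2 and 3. The group ranges overlapped, since TNF 1 lay above Control 3, but each TNF library was below its same-numbered Control. Cpt1a fell from 368 ± 41.0 to 307 ± 40.6 CPM (log2 -0.26, SE 0.12 unpaired and 0.03 blocked; limma adjusted p 0.635 unpaired and 3.15e-05 blocked). The changes within replicate numbers were -0.23, -0.27 and -0.29, an SD of 0.03, and the call held in 9 of 9 alternative blocked fits. Their limma adjusted p lay between 4.47e-08, without the libraries numbered 1, and 0.00246, without a filter on low genes. The lowest value comes from fewer libraries and leans on the variance shared between genes, so it is no stronger evidence than the fit of all 6.

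Cpt2 on chromosome 4 (107903982 to 107923589, minus strand) showed no such shift. Its levels were 187, 202 and 172 CPM in Control and 170.4, 205 and 175 CPM in TNF. TNF 1 was below Control 1 while TNF 2 and TNF 3 were slightly above their Controls. The means were 187 ± 14.9 and 183 ± 18.9 CPM (log2 -0.03, SE 0.10 unpaired and 0.04 blocked; limma adjusted p 0.999 and 0.630). The ratio of Cpt1a to Cpt2 was lower in each TNF library than in its same-numbered Control, by 0.09, 0.29 and 0.31 in log2, but the groups overlapped (exact permutation test, two-sided, p = 0.3).

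The 4 acyl-CoA dehydrogenases did not move together. Acadm, which takes medium chains, lies on chromosome 3 (153922353 to 153944643, minus strand). It was at 268, 331 and 315 CPM in Control and at 234, 267 and 265 CPM in TNF. Acadm was the single member whose groups did not overlap, the highest TNF library lying just under the lowest Control; among all tested genes 6.66% were separated in that direction and 6.60% in the other. It fell from 305 ± 32.5 to 255 ± 18.9 CPM (log2 -0.25, SE 0.10 unpaired and 0.03 blocked; limma adjusted p 0.514 unpaired and 7.15e-05 blocked), and passed in 9 of 9 alternative blocked fits.

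Acadl, the long-chain enzyme, lies on chromosome 1 (66830839 to 66863309, minus strand). Its levels were 224, 286 and 247 CPM in Control and 241, 312 and 268 CPM in TNF. The groups overlapped widely, but every TNF library was above its same-numbered Control, by 0.10, 0.12 and 0.12 in log2. Acadl rose from 253 ± 31.3 to 274 ± 36.0 CPM (log2 0.11, SE 0.12 unpaired and 0.03 blocked; limma adjusted p 0.958 unpaired and 0.0161 blocked). The blocked call was lost without the libraries numbered 2 (adjusted p 0.0657) and without those numbered 3 (0.0585), at log2 0.11 in both. A processed pseudogene, Gm15793, and a small nuclear RNA gene lie within its span in GENCODE, so reads may be shared.

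Acadvl, for very long chains, and Acads, for short chains, stayed close to their Control levels. Acadvl was at 269.6, 336 and 290.3 CPM in Control and at 264, 331 and 276 CPM in TNF, on chromosome 11 (70010183 to 70015428, minus strand). Each TNF library was a little below its Control, a pattern shared by 27.7% of all tested genes, and the change did not pass (log2 -0.04, SE 0.12 unpaired and 0.03 blocked; limma adjusted p 0.999 and 0.389). Acads was at 119, 111 and 100.6 CPM in Control and at 114, 112 and 95.1 CPM in TNF, on chromosome 5 (115110299 to 115119346, minus strand). TNF 2 was slightly above Control 2 and the other two were below (log2 -0.05, SE 0.10 unpaired and 0.04 blocked; limma adjusted p 0.998 and 0.416). In GENCODE, Acadvl overlaps Dvl2 on the opposite strand, and with the strand setting of the counting not given such reads cannot be told apart.

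The balance within this enzyme family was described by a ratio that was chosen with earlier results of these data known. Its test is therefore no independent support for the rise of Acadl. Acadl relative to the mean of Acadm, Acadvl and Acads, as log2 ratio of CPM, was 0.13, 0.31 and 0.24 in Control and 0.33, 0.54 and 0.49 in TNF. The groups did not overlap, and the ratio was higher by 0.23 with TNF, with changes of 0.20, 0.23 and 0.25 within replicate numbers. The exact permutation test gave p = 0.1 (two-sided), the smallest value that 3 libraries against 3 allow. Against Acadm alone, a ratio chosen after the values were seen, Acadl went from 0.835, 0.864 and 0.785 in Control to 1.03, 1.17 and 1.01 in TNF. In CPM, then, Acadl was the lower of the pair in all 3 Control libraries and the higher in all 3 TNF libraries (exact permutation test p = 0.1). Over the 4 ratios computed, the Benjamini-Hochberg adjusted p of both was 0.2.

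**Figure D2:**
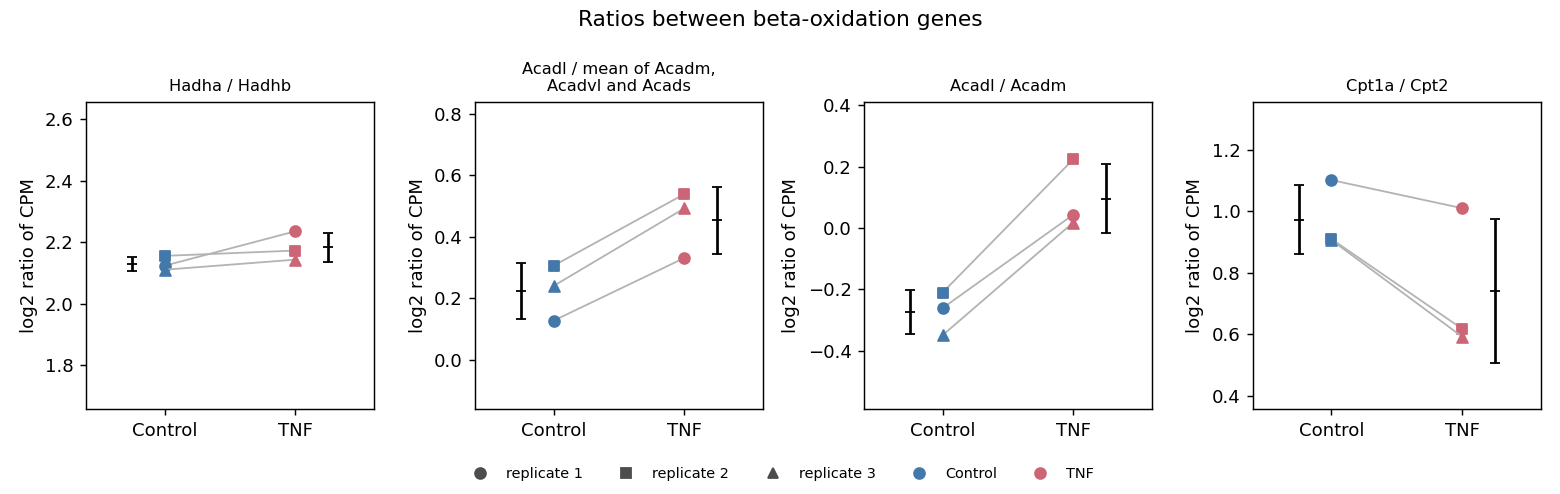
Log2 ratios of CPM between members in each library, with Control in blue, TNF in red, grey lines joining the same replicate number and black bars giving mean ± SD; all panels span 1 log2 unit. Both Acadl ratios are separate between groups, while the ratio of Hadha to Hadhb overlaps, with a small rise in each pair.

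The genes of the trifunctional protein moved in the same direction. Hadha, for the α subunit, lies on chromosome 5 (30118304 to 30154980, minus strand) and was at 300.4, 409 and 352 CPM in Control and at 288, 357 and 320.5 CPM in TNF. Hadhb, for the β subunit, lies beside it on the plus strand (30155253 to 30184593) and was at 68.9, 91.8 and 81.4 CPM in Control and at 61.2, 79.1 and 72.6 CPM in TNF. For both genes library 2 was the highest and library 1 the lowest in each group, the groups overlapped, and each TNF library was below its Control. Hadha fell from 354 ± 54.4 to 322 ± 34.2 CPM (log2 -0.13, SE 0.13 unpaired and 0.03 blocked; limma adjusted p 0.952 unpaired and 0.0137 blocked) and Hadhb from 80.7 ± 11.5 to 70.9 ± 9.05 CPM (log2 -0.18, SE 0.13 unpaired and 0.04 blocked; 0.885 and 0.00452). The Hadha call was lost without the libraries numbered 2 (log2 -0.10, adjusted p 0.110) and without a filter on low genes; the Hadhb call held in 9 of 9 alternative blocked fits.

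Across the 6 libraries Hadha and Hadhb had the highest correlation of the 45 pairs of members (Pearson r = 0.98 of log2(CPM + 1), given as a description, since libraries share replicate numbers and scaling). The lowest was between Acads and Acaa2 (r = -0.62). The CPM ratio of Hadha to Hadhb was 4.36, 4.45 and 4.32 in Control and 4.71, 4.51 and 4.42 in TNF. The ranges overlapped, and the ratio was higher in each TNF library than in its same-numbered Control, by 0.11, 0.02 and 0.03 in log2. The means differed by 0.05 (exact permutation test, two-sided, p = 0.2, Benjamini-Hochberg adjusted 0.267). The stretch printed above lies between the start sites of the pair; its first GC box falls in the windows of both genes, and the second was matched in that of Hadhb alone.

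Acaa2, the thiolase, lies on chromosome 18 (74779212 to 74806207, plus strand) and was at 180.3, 218 and 215 CPM in Control and at 174, 186 and 205 CPM in TNF. All 3 TNF libraries were below their Controls, most of all TNF 2, and the groups overlapped. Acaa2 fell from 205 ± 21.1 to 188 ± 15.7 CPM (log2 -0.12, SE 0.10 unpaired and 0.04 blocked; limma adjusted p 0.923 unpaired and 0.0431 blocked). This call rested on the libraries numbered 2: without them the change was -0.06 with an adjusted p of 0.353. It was also lost under median-of-ratios scaling and without a filter on low genes, and in the authors' deposited table its adjusted p was 0.103.

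Decr1, which handles unsaturated chains, lies on chromosome 4 (15917240 to 15945507, minus strand). It was at 84.7, 114.5 and 80.6 CPM in Control and at 79.8, 100.4 and 76.7 CPM in TNF. Library 2 stood well above the others in both groups, each TNF library was below its Control, and the groups overlapped. The change of -0.11 (SE 0.16 unpaired, 0.04 blocked) did not pass in limma (adjusted p 0.983 and 0.0588), nor in any of 9 alternative blocked fits, where adjusted p lay between 0.0521 and 0.350. The authors' deposited table gave it an adjusted p of 0.0671.

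**Figure D3:**
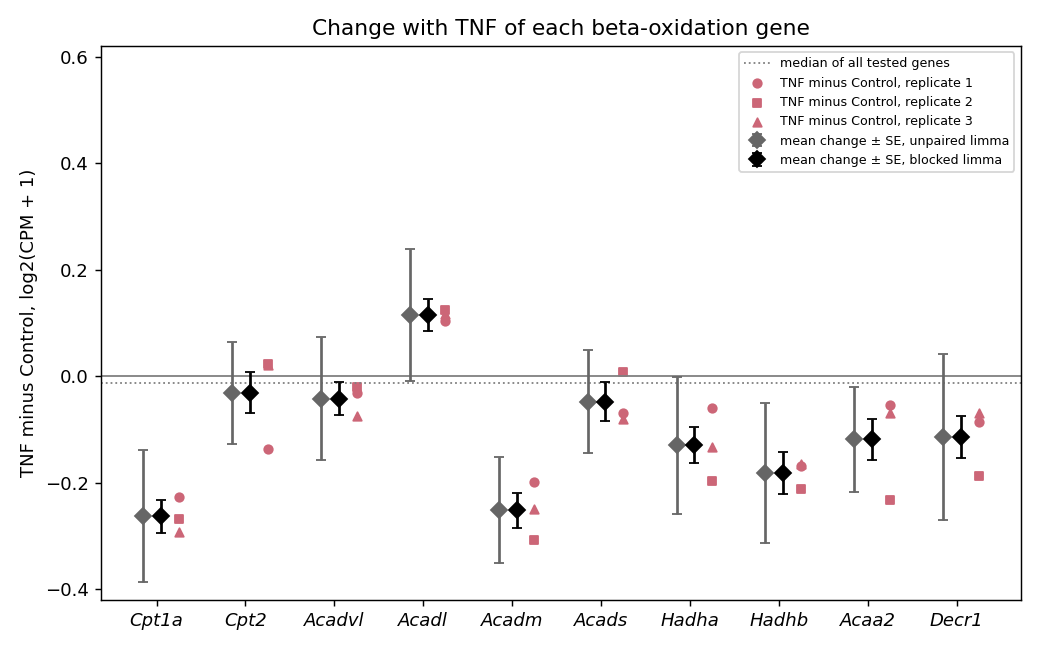
Change of each gene (TNF minus Control, log2(CPM + 1)) with ± 1 SE of the unpaired (grey) and blocked (black) limma fits, and the change within each replicate number (red). Cpt1a and Acadm are lowest at about -0.26 and -0.25, Acadl is the one gene above 0, and the dotted line marks the median of all tested genes at -0.01.

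By the authors' deposited table, 5 members had an adjusted p under 0.05, where 8.32% of 19764 genes were lower and 6.85% higher. Cpt1a (log2 -0.26, adjusted p 9.81e-14), Acadm (-0.25, 2.01e-09), Hadhb (-0.19, 0.000345) and Hadha (-0.13, 0.0161) were lower there and Acadl (0.12, 0.00226) was higher. The signs were those of the limma fits for each of the 10 genes. The labels do not state the model behind that table.

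The spread between replicate numbers had its own pattern. In Control, library 2 was the highest for 8 of the 10 members, and in TNF for 7. The exceptions in both groups were Cpt1a and Acads, which were highest in library 1 and lowest in library 3, and in TNF also Acaa2, highest in library 3. Summed over the members, levels were 2105, 2479 and 2176 CPM in Control and 1968, 2264 and 2016 CPM in TNF. The 10 genes together took 0.216% to 0.239% of reads in Control and 0.203% to 0.219% in TNF, ranges that overlapped. Beside this, albumin (Alb) was at 23455, 41051 and 40290 CPM in Control 1, 2 and 3 and at 23427, 37984 and 38482 CPM in TNF 1, 2 and 3, so library 1 of both groups stood apart in the most abundant hepatocyte transcript; the part of this in the members' spread was not tested.

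Per kilobase of mRNA, using the length of the GENCODE transcript paired with each RefSeq identifier, Acadm had the highest value in Control at 149 ± 15.9 CPM per kb. Acadvl (138 ± 15.7), Acaa2 (135 ± 13.9) and Acadl (132 ± 16.3) followed, and neighbours in this order overlapped within their SDs. A second group, Hadha (88.1 ± 13.5), Cpt1a (85.2 ± 9.49) and Cpt2 (78.9 ± 6.27), also overlapped within their SDs. Acads (59.1 ± 5.05), Hadhb (39.4 ± 5.60) and Decr1 (31.5 ± 6.25) were lower, the last pair overlapping within their SDs. In TNF the order began with Acadl (143 ± 18.8), Acadvl (134 ± 16.6), Acadm (125 ± 9.21) and Acaa2 (124 ± 10.4), again with neighbours overlapping within their SDs. The order depends on the length used. The deposited values counted reads over gene spans, introns included, so values per kilobase of mRNA are not levels of mature mRNA alone. Per kilobase of counted length Acadvl, the shortest gene at 5157 counted bases, led with 57.9 CPM per kb in Control, while Cpt1a, the longest at 62433, had 5.89.

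**Figure D4:**
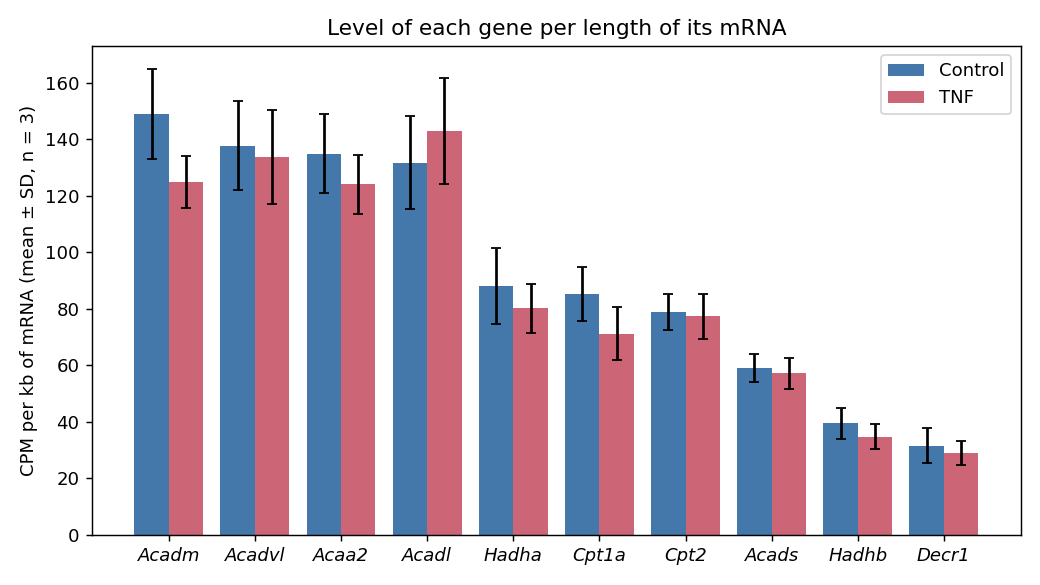
Level of each gene in CPM per kilobase of mRNA (bars from 0, mean ± SD, n = 3) in Control and TNF, ordered by the Control mean. Acadm leads in Control at 149 and Acadl leads in TNF at 143, with error bars that overlap among the first 4 genes. Reads were counted over gene spans, introns included, so these are not levels of mature mRNA alone.

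A further list, grouped here as matrix enzymes and electron transfer, was counted in the same way. Where in the cell each product lies was not checked. Of its 15 genes 6 fell, 1 rose and 8 did not pass the blocked limma fit, and the median change was -0.16. That fit called 11.2% of all tested genes lower and 9.39% higher, and 17.6% and 16.0% of those with a mean level at or above that of Hadhb. In the alternative blocked fits the lower count of the list was 5 to 7 and the higher count 1. The unpaired fit called none of the 15. Those that fell were Acad11, Acat1, Eci2, Hadh, Etfb and Etfa. The acyl-CoA dehydrogenase family member Acad11 fell from 162 ± 41.8 to 117 ± 34.2 CPM (log2 -0.47). Acat1, a mitochondrial thiolase of acetoacetyl-CoA, fell by 0.31 on the log2 scale. The genes for the electron transfer flavoprotein, Etfa and Etfb, fell (log2 -0.11 and -0.17). Their blocked limma adjusted p was 0.0462 and 0.00801, so the Etfa call was close to the threshold. Etfdh, whose product passes their electrons to ubiquinone, rose from 244 ± 27.8 to 279 ± 31.0 CPM (log2 0.19, limma adjusted p 0.791 unpaired and 0.000559 blocked). Etfdh was higher in each TNF library than in its same-numbered Control and stayed called without each replicate number in turn.

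Genes that bring acyl groups to the spiral were split as well. Of 8 tested genes 3 fell (Acsl1, Slc25a20 and Crat), 2 rose (Acsl4 and Acsl5) and 3 did not pass in the blocked limma fit. Of all tested genes that fit called 11.2% lower and 9.39% higher, and of those with a mean level at or above that of Hadhb 17.6% and 16.0%. The unpaired limma fit called none of the 8 (lowest adjusted p 0.467, for Acsl1). Cpt1b was not analysed here. Acsl1, the acyl-CoA synthetase linked to oxidation in liver, fell from 164 ± 33.8 to 119.8 ± 20.4 CPM (log2 -0.45). Acsl4, which prefers arachidonate, rose from 171 ± 34.5 to 226 ± 45.5 CPM (log2 0.40), and Acsl5 rose by 0.12. Slc25a20, the carnitine-acylcarnitine carrier of the inner membrane, fell by 0.16 on the log2 scale. Without a replicate number the lower count was 1 to 2 and the higher count 1 to 2; the higher count was 1 without the libraries numbered 2, Acsl4 remaining. The list median was -0.05 and turned to 0.02 without the libraries numbered 3.

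Among 16 regulators of the pathway 8 fell and none rose in the blocked limma fit, against 11.2% of all tested genes lower and 9.39% higher. For genes with a mean level at or above that of Hadhb the shares were 17.6% lower and 16.0% higher. At an unadjusted p under 0.05, 1 was higher, and blocked limma-voom gave the same higher counts, 0 adjusted and 1 unadjusted. The lower count was 6 without the libraries numbered 2, 7 without those numbered 3 and 7 without a filter on low genes. The unpaired fit called none. Sirt3, the mitochondrial deacetylase, fell from 52.2 ± 6.42 to 38.1 ± 0.659 CPM (log2 -0.44), and Hnf4a, a nuclear receptor of hepatocyte identity, from 565 ± 54.2 to 418 ± 36.1 CPM (log2 -0.43). Rxra, the partner of PPARα on DNA, was at 181, 222 and 191 CPM in Control and at 148, 148 and 145 CPM in TNF (log2 -0.42), without overlap. The groups of Sirt3, Hnf4a and Creb3l3 did not overlap either. Of all tested genes 6.66% were separated in that direction. Ppara itself was at 118 ± 17.8 and 125 ± 19.5 CPM (log2 0.09; limma adjusted p 0.995 unpaired and 0.117 blocked). Acacb, whose product makes malonyl-CoA near CPT1, and Mlycd, whose product breaks malonyl-CoA down, both fell (log2 -0.37 and -0.22).

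Peroxisomal β-oxidation was set beside the mitochondrial genes as the nearest comparison. Of its 10 genes 7 fell and 1 rose, with a median of -0.23, against 5 and 1 of the 10 mitochondrial genes with a median of -0.12; the difference between the lists was not tested. These are blocked limma counts, from a fit that called 11.2% of all tested genes lower and 9.39% higher. Among genes with a mean level at or above that of Hadhb, as most of this list are, it called 17.6% lower and 16.0% higher. The unpaired fit called none of either list. Crot, the peroxisomal carnitine octanoyltransferase, fell by 0.50 on the log2 scale and the thiolase Acaa1b by 0.44, while its paralog Acaa1a rose from 117.5 ± 13.4 to 139 ± 13.8 CPM (log2 0.24). Acaa1a and Acaa1b are near-identical, so reads may be split between them. The peroxisomal counts were the same without each replicate number in turn.

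**Figure D5:**
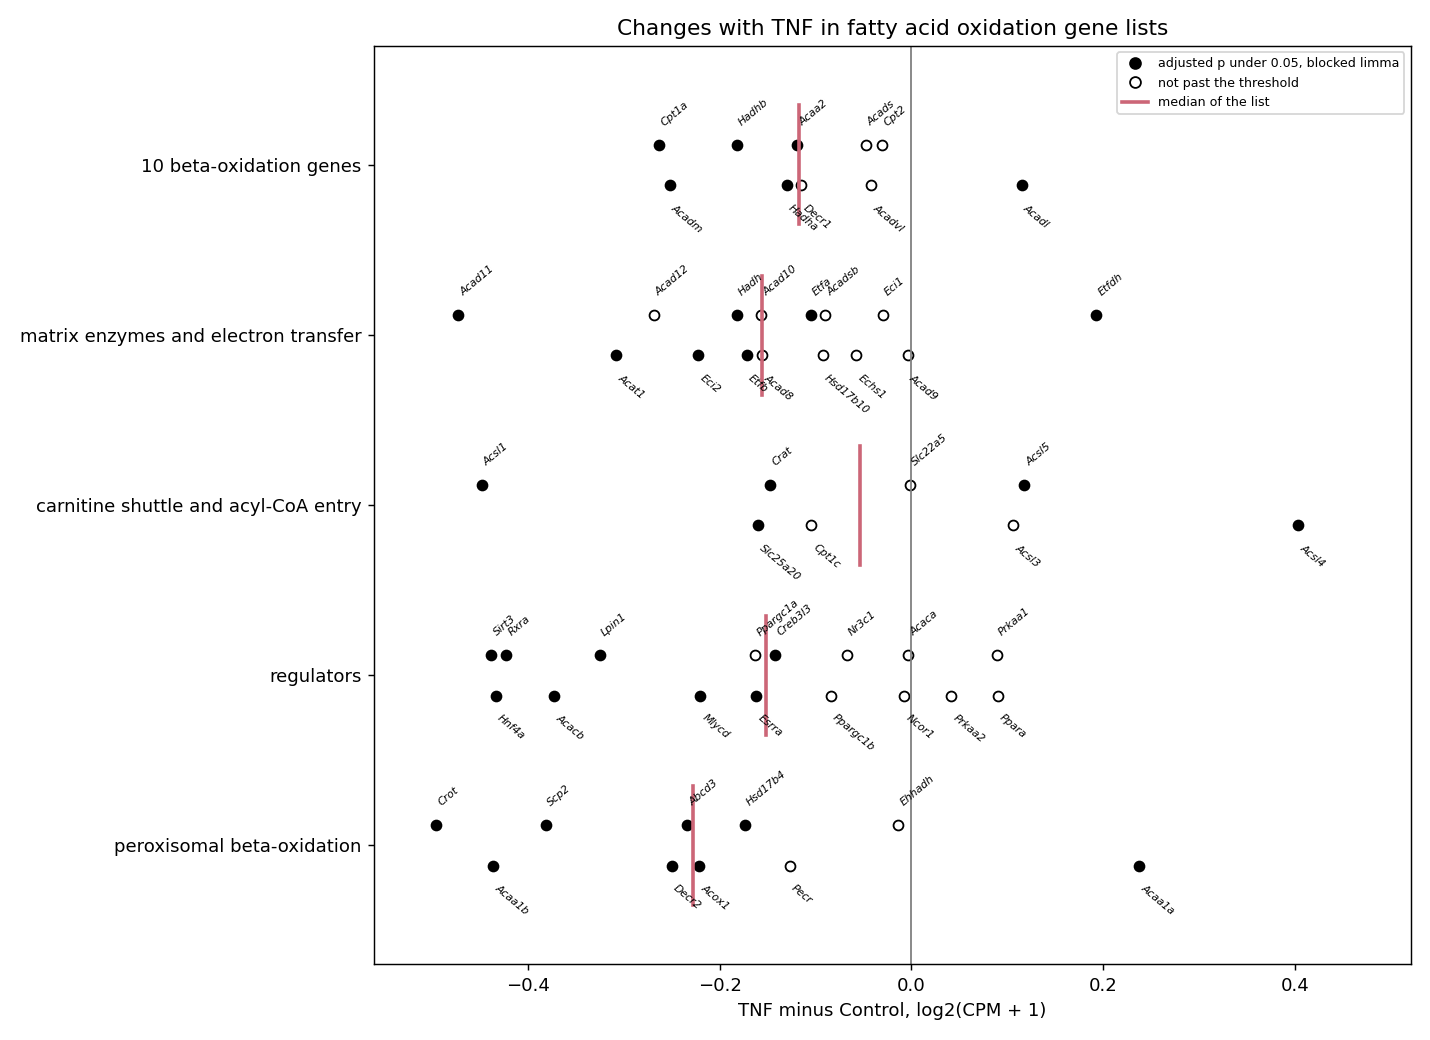
Change with TNF (log2(CPM + 1)) of each tested gene in 5 lists, 1 list per row, with filled points for genes called at 0.05 in the blocked limma fit, open points for the others and red bars at the list medians. Medians run from -0.05 for the carnitine and acyl-CoA entry genes to -0.23 for the peroxisomal genes, and most rows hold at least 1 filled point on the right: Acadl, Etfdh, Acsl4, Acsl5 and Acaa1a.

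Patterns most like those of Cpt1a and Acadl were looked up among 8799 other tested genes with a mean of at least 10 CPM, by Pearson correlation of log2(CPM + 1) over the 6 libraries. For Cpt1a they were Sepsecs (r = 0.998), Amot (0.994) and Dmd (0.994), with log2 changes of -0.14, -0.35 and -0.24, of which that of Sepsecs did not pass (limma blocked adjusted p 0.0693). For Acadl they were Lrrfip1 (r = 0.998), 2610002M06Rik (0.996) and Cebpg (0.994), with log2 changes of 0.04, 0.13 and 0.12; those of Lrrfip1 and 2610002M06Rik did not pass (limma blocked adjusted p 0.453 and 0.145). With 6 libraries that share scaling and replicate numbers, and so many genes searched, values this high are a ranking and no test.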

How the data were processed

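PolyA RNA was sequenced paired-end in 6 libraries. Reads were aligned with STAR 2.6.1a to mm10, as the submitters' processing notes state. Which program counted reads, with what annotation and strandedness, the sources used here do not give. The authors deposited log2 CPM per gene and library with a prior count added, and, per the file headers, their own log2 fold change with p-value, adjusted p-value and a score (likelihood ratio). After subtracting the shared floor (0.098 CPM), all 118584 values were whole multiples of 1 read within 1e-06 reads. The table held log2 values and not raw counts, so no count model was used as the main test. The filter asked for 10 reads at median depth in 3 libraries, and 15 reads summed. limma 3.58.1 (R 4.3.3) was fitted on log2(CPM + 1) over all 12276 genes with a trended prior, two-sided, Benjamini-Hochberg adjusted at 0.05, group as the only term; the block was the alternative. The labels name no shared animal or day: the pairing comes from the titles' numbers and the correlations of like numbers. Before correlating, the mean of its group was subtracted from each library. That centering pushes the values of unlike numbers below 0 (-0.47 to -0.34), so those add no support to the pairing. Blocked SEs lean on the prior variance shared between genes. Replicates differed beyond sampling noise (chi-square per df 23.4 to 42.0). Single ratios had exact permutation tests over libraries. The fits were tested on simulated data. The members, the lists and the ratio of Acadl to the other acyl-CoA dehydrogenases were chosen with earlier results of these data known. Named were all members, per list the 2 largest called changes in each direction and genes given as background, and the 3 genes most like Cpt1a and Acadl; others (such as Rxra, Acacb and Etfa) and the ratios to Acadm and Cpt2 were chosen after their values were seen. The scaling alternative moved the median of all genes by less than 0.1.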

Additional observations from a re-analysis of the deposited data

How the results depend on the processing

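The block decided the calls. Over all genes 53 calls became 2527 with the replicate block, and with the block 2520 by limma-voom, 2570 under median-of-ratios scaling, 2494 at a pseudocount of 0.1, 1743 without a filter, 2522 at a mean of at least 1 CPM and 2495 on the deposited log2 values (the last 2 chosen after seeing the data). Leaving out a pair gave 1742, 2198 and 2314 with the block, leaving out a library 9 to 31 without it, and no filter 31. Of the 10 members 0 were called unpaired, and 6 with the block, by limma-voom with the block, at a pseudocount of 0.1, at 1 CPM and on the deposited values; 5 under median-of-ratios scaling, 4 without a filter, and 3 to 6 without a pair. Direction turned in 9 alternatives for single members, all in genes that did not pass: Cpt2 (0.025, 0.019, 0.002, 0.022), Acads (0.010, 0.034), Acadvl (0.046, 0.023) and Decr1 (0.041), each with a library or pair left out; without 1 library their changes ranged from -0.114 to 0.0248 (Cpt2), -0.113 to 0.0337 (Acads), -0.141 to 0.0459 (Acadvl) and -0.233 to 0.0406 (Decr1). The other members kept their sign in the unpaired fit without 1 library but moved: Cpt1a -0.35 to -0.16, Acadm -0.34 to -0.19, Hadha -0.24 to -0.02, Hadhb -0.29 to -0.08, Acaa2 -0.21 to -0.06 and Acadl 0.02 to 0.21. Ratio changes kept their sign: 0.18 to 0.29 for Acadl and 0.03 to 0.07 for Hadha to Hadhb without a library; within pairs the exact permutation p of both was 0.25, the smallest 3 pairs allow. The cause of these differences was not tested.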
